A study of Mus musculus with 64 samples.

Results

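The genes described here are 10 enzymes and regulators of branched-chain amino acid breakdown: Bcat2, Bckdha, Bckdhb, Dbt, Bckdk, Ppm1k, Ivd, Acadsb, Hibadh and Mccc1. They were chosen by name, as core members of the pathway, and all 10 were found among the 16913 genes of the deposited gene table. Hearts of 64 C57BL/6J mice were profiled by RNA sequencing after depletion of ribosomal RNA. Of these mice, 31 carried a transgene for cardiac troponin T with the delta160E change (cTnT-delta160E, labelled TG) and 33 did not (nTG). Trained mice underwent high-intensity interval training (HIIT) on a treadmill for 6 weeks, with sessions of 31 minutes on 3 days per week, and sedentary mice (Sed) did not exercise. The groups held 7 sedentary nTG males, 8 trained nTG males, 9 sedentary TG males, 8 trained TG males, 8 sedentary nTG females, 10 trained nTG females, 8 sedentary TG females and 6 trained TG females. All groups shared the C57BL/6J background. The promoter that drives the transgene, the number of founder lines and the age of the mice are not given in the sources used here.

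Leucine, isoleucine and valine are the branched-chain amino acids, and muscle, including heart muscle, breaks them down in mitochondria. A transaminase first removes the amino group, and the branched-chain ketoacid dehydrogenase complex then commits the carbon skeleton to oxidation. That complex is switched off when a kinase phosphorylates it and on when a phosphatase removes the phosphate, after which separate enzymes for each amino acid lead to acetyl-CoA, ketone bodies or succinyl-CoA. Low activity of this pathway and raised ketoacids are a known feature of failing hearts.

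The gene columns of the deposited table did not carry the libraries that their names state. When columns were read by name, 32 of 64 libraries contradicted the labelled sex and 30 the labelled genotype, judged by sex-linked genes and by Tnnt2, the gene of the transgene. Each library's column in the deposited lncRNA table was therefore paired with its best-correlated gene column, over 389 autosomal transcripts present in both. The best r was 0.60 to 0.86 and the next best at most 0.40, each choice was the best in both directions, and only 1 column kept its name. After matching, no library contradicted its labels, and Tnnt2 was 2665 to 3428 CPM (counts scaled to library size) in nTG hearts and 6903 to 12001 CPM in TG hearts. All values below use matched columns. With columns by name no member passed the test in any comparison. In the comparisons where members passed with matched columns, no gene of the table passed by name. Gene counts per library totalled 34.6 M to 67.1 M, and no member had fewer than 799 counts in any heart.

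Differences are given as log2 fold changes with their standard error (SE), from edgeR's quasi-likelihood test over all 16913 genes, and "passed" means a Benjamini-Hochberg adjusted p under 0.05. Levels are CPM after TMM scaling. In bulk tissue, fewer cells of a type and less RNA per cell cannot be told apart. Nothing in the labels says more of the mice than their group and number, so p-values weigh differences against the spread between hearts within groups.

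Differences of the branched-chain amino acid genes were negative, TG against nTG, in both sexes and both training states, though not all passed. All 10 passed as lower in sedentary males, where 11.2% of all genes tested did so, and 5 of 10 in trained males against 8.31% of all genes. In females, 3 of 10 passed as lower in sedentary mice, against 2.78% of all genes, and 9 of 10 in trained mice, against 9.43%. The count in sedentary females was 1, Ivd, when only those 2 groups were fitted (367 of all genes called), and 7 with limma voom (1269 called). Each of the 40 differences was negative, 27 of them passed, and none passed in the other direction. The mean over the 4 comparisons passed as lower for all 10 members, with 20.5% of all genes lower. The falls were moderate in size: in sedentary males Bckdk fell by 9.55%, the least, and Ppm1k fell by 30.02%, the most. In 8 of the 40 comparisons every TG heart lay below every nTG heart. These were Ppm1k and Ivd in sedentary males (1.3% of all genes did so), Dbt and Ivd in trained males (1.29%), and Bcat2, Bckdhb, Bckdk and Ivd in trained females (2.04%). No member did so in sedentary females, where 0.284% of all genes did.

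**Figure D1:**
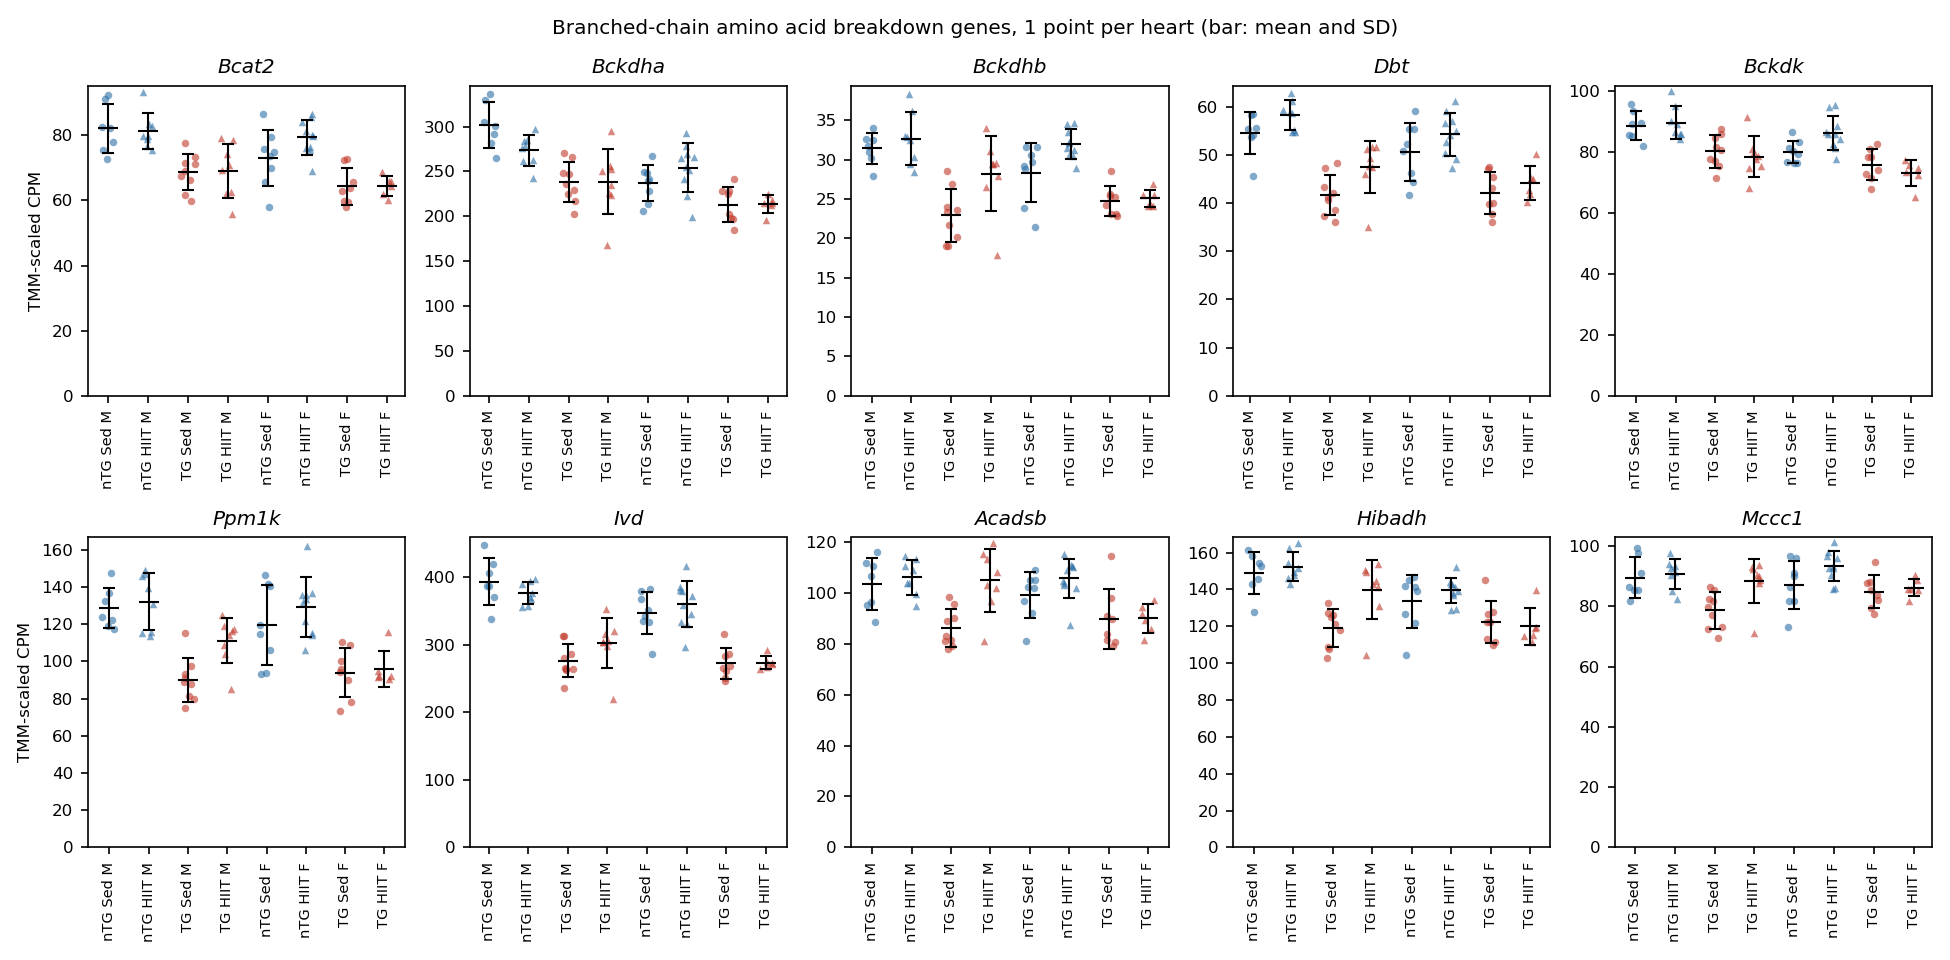
Levels of the 10 genes in every heart, in TMM-scaled CPM on axes that start at 0, with circles for sedentary and triangles for trained mice, blue for nTG and red for TG, and the mean and SD in black. In each panel the TG means lie below the nTG means of the same sex and training, with the clearest separation for Ivd, and 1 trained TG male lies lowest in its group in every panel.

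Levels per kilobase of exon differed widely between members. Bckdha was highest at a mean of 130 CPM per kilobase, followed by Ivd at 59.3 CPM per kilobase. Bckdk, Ppm1k, Bcat2, Bckdhb, Dbt, Acadsb and Hibadh lay between 22.1 and 13.2 CPM per kilobase, and Mccc1 was lowest at 7.98. The subunits of 1 enzyme complex were thus not at 1 level, since Bckdha stood far above Bckdhb and Dbt. Exon lengths cover all annotated exons, so the level of a gene with long, little-used exons is understated.

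Bcat2 encodes the mitochondrial transaminase that performs the first step (chr7:45570153-45589711, + strand, build GRCm38, GENCODE M21, as for the genes below). Its level was 72.6 to 92.3 CPM with a median of 82.3 in sedentary nTG males, and 59.8 to 77.6 CPM with a median of 69.0 in sedentary TG males. In trained females it was 69.0 to 86.5 CPM (median 79.8) in nTG hearts and 59.99 to 68.7 CPM (median 65.1) in TG hearts. The male groups overlapped and the trained female groups did not. Bcat2 fell by 0.26 ± 0.06 on the log2 scale in sedentary males (adjusted p = 0.00201), by 0.23 ± 0.06 in trained males (adjusted p = 0.00736) and by 0.30 ± 0.07 in trained females (adjusted p = 0.000928). In sedentary females the difference was -0.18 ± 0.06 (adjusted p = 0.0889). Bcat1, the cytosolic transaminase, was barely detected, at 0.17 to 0.89 CPM.

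Bckdha, Bckdhb and Dbt encode the core of the branched-chain ketoacid dehydrogenase complex: the alpha and beta subunits of the decarboxylase and the E2 transacylase. Bckdhb (chr9:83925145-84124240, + strand) was 27.9 to 33.99 CPM with a median of 31.8 in sedentary nTG males, and 18.97 to 28.6 CPM with a median of 23.3 in sedentary TG males. These groups overlapped only where the lowest nTG and the highest TG hearts met. Bckdhb fell by 0.46 ± 0.08 there (adjusted p = 2.28e-05), and by 0.35 ± 0.08 in trained females (adjusted p = 0.00209), whose groups did not overlap. The differences in trained males, -0.21 ± 0.08, and in sedentary females, -0.19 ± 0.08, did not pass (adjusted p = 0.0634 and 0.167).

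Dbt (chr3:116513070-116549981, + strand) passed as lower in all 4 genotype comparisons. In trained males it was 54.7 to 62.9 CPM (median 58.8) in nTG and 35.03 to 51.6 CPM (median 48.5) in TG hearts, with no overlap. In sedentary mice its log2 difference was -0.39 ± 0.07 for males and -0.27 ± 0.07 for females (adjusted p = 2.24e-05 and 0.0107). In trained mice it was -0.29 ± 0.07 for either sex (adjusted p = 0.00161 for males and 0.00238 for females). With only the 2 groups fitted, the call in sedentary females was lost (adjusted p = 0.0715).

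Bckdha (chr7:25629946-25658981, - strand) was the most abundant member per kilobase. It ranged from 265 to 337 CPM in sedentary nTG males (median 301) and from 203 to 271 CPM in sedentary TG males (median 236), with a narrow overlap. Bckdha fell by 0.34 ± 0.07 in sedentary males (adjusted p = 0.000257), by 0.20 ± 0.07 in trained males (adjusted p = 0.0455) and by 0.25 ± 0.07 in trained females (adjusted p = 0.013). In sedentary females the difference was -0.15 ± 0.07 and did not pass (adjusted p = 0.241). The call in trained males was lost without replicate 4 of the trained TG males (log2 difference -0.14, adjusted p = 0.166), and when only the 2 groups were fitted (-0.19, adjusted p = 0.103). In the annotation, 1171 of its 1899 exon bases lie opposite exons of B3gnt8, a glycosyltransferase gene. B3gnt8 averaged 245 counts per library and was higher by 0.30 ± 0.09 in sedentary TG males (adjusted p = 0.00951), against at least 7104 counts for Bckdha in any heart. Whether reads were counted by strand is not given in the sources used here.

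Bckdk and Ppm1k encode the kinase that inactivates the complex and the phosphatase that reactivates it. Ppm1k (chr6:57506502-57535468, - strand) was 118 to 147 CPM in sedentary nTG males (median 124) and 75.1 to 115 CPM in sedentary TG males (median 88.9). No TG heart reached the lowest nTG heart. Ppm1k fell by 0.51 ± 0.09 in sedentary males (adjusted p = 2.24e-05), by 0.35 ± 0.09 in sedentary females (adjusted p = 0.0119) and by 0.43 ± 0.09 in trained females (adjusted p = 0.000876). The call in sedentary females was lost when only those groups were fitted (adjusted p = 0.0959). In trained males the difference was -0.25 ± 0.09 and missed the threshold (adjusted p = 0.0504).

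Bckdk (chr7:127904082-127910221, + strand) showed smaller differences. In sedentary males it was 81.8 to 95.7 CPM (median 89.1) in nTG and 71.4 to 87.4 CPM (median 80.4) in TG hearts, and these groups overlapped. In trained females it was 77.6 to 95.3 CPM (median 85.8) in nTG and 65.2 to 77.4 CPM (median 74.0) in TG hearts, without overlap. Bckdk fell by 0.14 ± 0.05 in sedentary males, by 0.19 ± 0.05 in trained males and by 0.24 ± 0.05 in trained females (adjusted p = 0.0192, 0.00277 and 0.000356). In sedentary females the difference was -0.08 ± 0.05 (adjusted p = 0.422). Kinase and phosphatase mRNA were thus both lower in TG hearts. Averaged over the 4 comparisons, the log2 difference was -0.16 ± 0.02 for Bckdk and -0.38 ± 0.05 for Ppm1k, and the gap between them was not tested.

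Ivd encodes isovaleryl-CoA dehydrogenase, the next enzyme of leucine breakdown (chr2:118861954-118882909, + strand). It was 339 to 448 CPM in sedentary nTG males (median 387) and 237 to 314 CPM in sedentary TG males (median 266). In trained females it was 298 to 417 CPM in nTG (median 365) and 264 to 293 CPM in TG hearts (median 272). Neither pair of groups overlapped, nor did trained males, at 356 to 398 CPM in nTG and 220 to 354 CPM in TG hearts. In sedentary mice Ivd fell by 0.51 ± 0.06 in the males and fell by 0.35 ± 0.06 in the females (adjusted p = 2.79e-08 and 0.000167). In trained mice it fell by 0.31 ± 0.06 in the males and fell by 0.40 ± 0.07 in the females (adjusted p = 0.000316 and 2.04e-05). Its mean difference, -0.39 ± 0.03, was the largest among the members (adjusted p = 1.13e-15).

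Mccc1 encodes the alpha subunit of methylcrotonyl-CoA carboxylase, the leucine step after Ivd (chr3:35959312-36000678, - strand). It was 81.7 to 99.4 CPM in sedentary nTG males (median 86.3) and 69.6 to 86.5 CPM in sedentary TG males (median 79.8), with overlap. The difference was -0.19 ± 0.05 (adjusted p = 0.00482), and it was the only single comparison that passed. The other 3 differences lay between -0.11 and -0.04. Mccc1 shares 198 exon bases with the opposite-strand gene Mccc1os, which averaged 73.5 counts, passed in none of the 4 genotype comparisons and was lower in their mean, at -0.15 ± 0.06 (adjusted p = 0.0489).

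Acadsb, short/branched-chain acyl-CoA dehydrogenase of isoleucine breakdown (chr7:131410601-131448944, + strand), and Hibadh, 3-hydroxyisobutyrate dehydrogenase of valine breakdown (chr6:52546228-52640389, - strand), shared a pattern. Acadsb was 88.5 to 116 CPM in sedentary nTG males (median 107) and 78.0 to 98.4 CPM in sedentary TG males (median 83.1). Hibadh was 128 to 161 CPM in sedentary nTG males (median 152) and 103 to 133 CPM in sedentary TG males (median 121). Both pairs of groups overlapped. Acadsb fell by 0.27 ± 0.07 in sedentary males and 0.23 ± 0.07 in trained females (adjusted p = 0.0023 and 0.0161). Hibadh fell by 0.33 ± 0.06 and 0.22 ± 0.06 in those mice (adjusted p = 8.79e-05 and 0.0148). In trained males Acadsb differed by -0.02 ± 0.07 and Hibadh by -0.12 ± 0.06, and neither passed (adjusted p = 0.908 and 0.179). Nor did either in sedentary females, at -0.14 ± 0.07 for Acadsb and -0.13 ± 0.06 for Hibadh (adjusted p = 0.252 and 0.291).

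**Figure D2:**
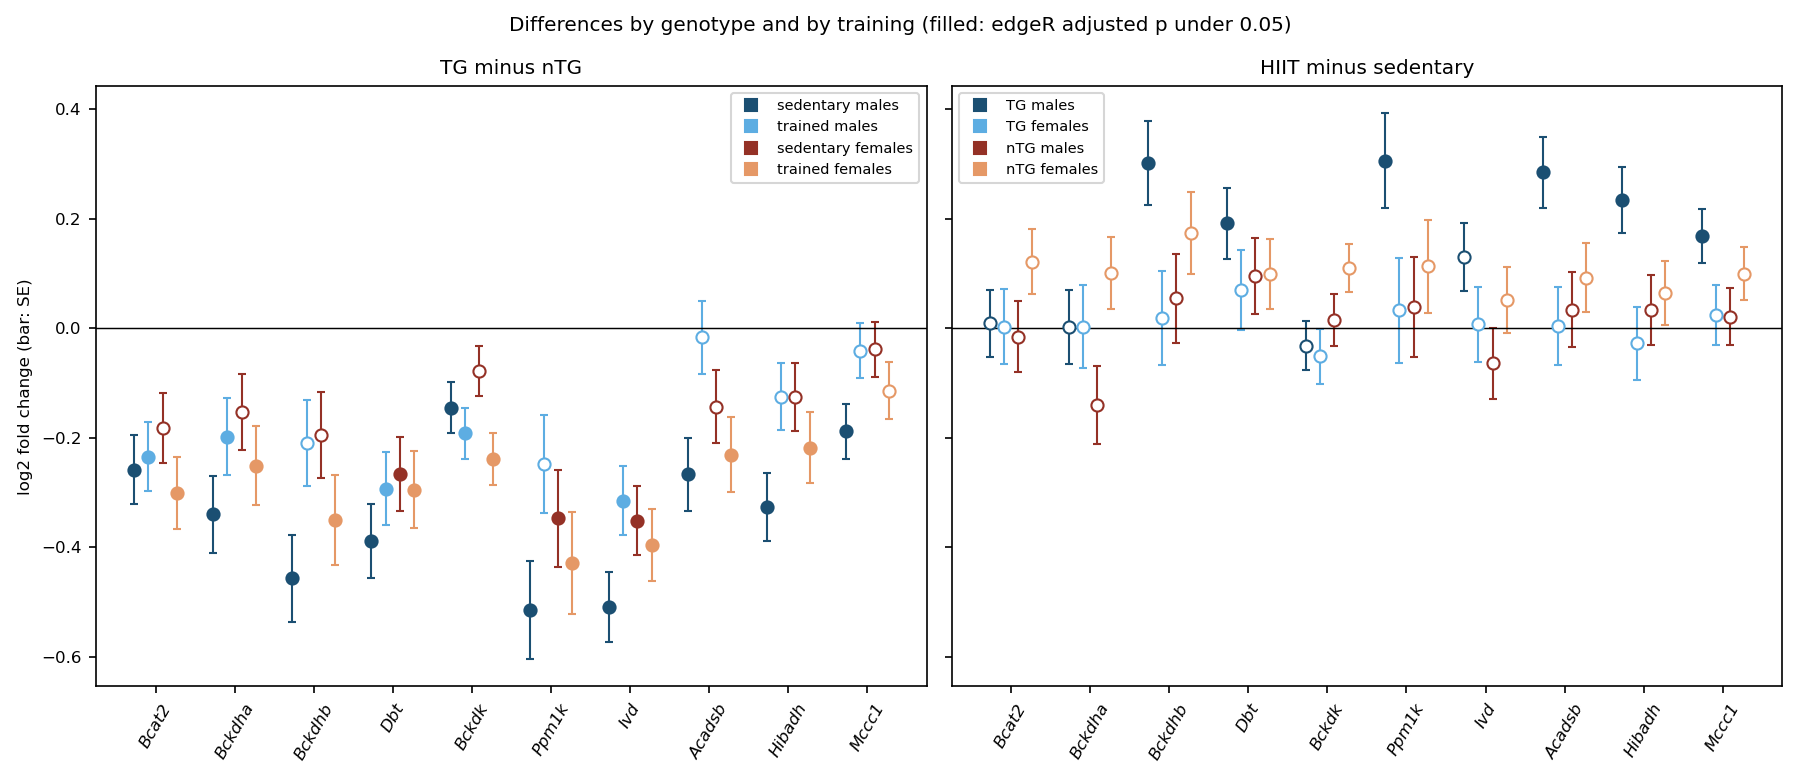
Log2 fold changes with SE for the 10 genes, TG minus nTG on the left and HIIT minus sedentary on the right, with filled points past an edgeR adjusted p under 0.05. Every point on the left lies below 0, and on the right only TG males have filled points, for 6 genes.

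Promoter windows were read for the members because they moved together. RefSeq promoters of build GRCm38.p6 matched 9 of 10 members with 11 windows, and the 250 bases before the start were searched on both strands. A CACCC box, the letters CCNCNCCC bound by Kruppel-like factors such as Klf15, was found in 5 of 11 windows and in 45.9% of all 32851 windows. A GC box, GGGCGG, whose letters can overlap it, was in 5 of 11 windows and 32.7% of all. The NRF1 motif, GCGC, 2 bases of any kind and GCGC again, was in 1 window, that of Hibadh, and in 4.98% of all. An estrogen-related receptor element, TNAAGGTCA, and a cAMP response element, TGACGTCA, were in none of the 11 windows and in 1.14% and 1.55% of all. The members' shares of the 2 common motifs were near or above those of all windows, and a match is not a bound site. Shown are the largest fall in sedentary males, Ppm1k (chr6:57535488-57535737, - strand), and the smallest mean fall, Mccc1 (chr3:36000679-36000928, - strand), each 5′ to 3′ with CACCC box letters in capitals.
Ppm1k: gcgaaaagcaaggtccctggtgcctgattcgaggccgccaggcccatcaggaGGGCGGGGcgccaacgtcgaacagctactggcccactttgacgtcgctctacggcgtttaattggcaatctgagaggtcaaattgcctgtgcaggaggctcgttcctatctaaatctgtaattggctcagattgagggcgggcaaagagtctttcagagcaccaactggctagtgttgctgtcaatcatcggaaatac
Mccc1: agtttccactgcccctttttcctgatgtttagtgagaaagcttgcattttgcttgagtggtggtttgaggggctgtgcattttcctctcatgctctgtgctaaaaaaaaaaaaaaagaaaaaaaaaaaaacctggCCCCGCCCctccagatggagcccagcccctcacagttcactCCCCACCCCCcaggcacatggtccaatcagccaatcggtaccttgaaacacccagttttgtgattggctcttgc
Both windows held the motif, on opposite strands: the Ppm1k match reads as its reverse complement.

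Training changed members in TG males. In trained against sedentary TG males, 6 of 10 passed as higher, against 10.3% of all genes, and none as lower. Ppm1k was 75.1 to 115 CPM in sedentary mice (median 88.9) and 85.1 to 125 CPM in trained mice (median 115). Bckdhb was 18.97 to 28.6 CPM in sedentary mice (median 23.3) and 17.9 to 33.97 CPM in trained mice (median 29.4). Acadsb was 78.0 to 98.4 CPM in sedentary mice (median 83.1) and 81.0 to 120 CPM in trained mice (median 106). Groups overlapped in each of these genes, and the trained heart at the bottom was replicate 4 in all of them. The log2 differences were 0.31 ± 0.09 for Ppm1k, 0.30 ± 0.08 for Bckdhb, 0.28 ± 0.06 for Acadsb, 0.23 ± 0.06 for Hibadh, 0.19 ± 0.07 for Dbt and 0.17 ± 0.05 for Mccc1 (adjusted p from 0.00266 for Acadsb to 0.0334 for Dbt). Marker genes moved in the same comparison: 2 of 6 cardiomyocyte markers were higher (median 0.12), and 5 of 5 blood (median -1.45), 3 of 5 macrophage (median -0.30), 2 of 5 endothelial (median -0.15) and 1 of 6 fibroblast markers (median -0.21) were lower. With the blood share as a covariate 1 member, Acadsb, passed in place of 6, and calls over all genes went from 3036 to 817. The differences of the other 5 stayed positive, at 0.26 for Ppm1k, 0.22 for Bckdhb, 0.18 for Hibadh, 0.15 for Dbt and 0.13 for Mccc1. With only the 2 groups fitted, Dbt did not pass (0.19, adjusted p = 0.0657). Blood genes themselves differed between these groups, so this covariate cannot tell blood from training. The part of the other markers was not tested.

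The transaminase, the alpha subunit and the kinase showed no such rise. The differences were 0.01 ± 0.06 for Bcat2, 0.00 ± 0.07 for Bckdha, -0.03 ± 0.05 for Bckdk and 0.13 ± 0.06 for Ivd, and none passed (adjusted p = 0.942, 0.986, 0.68 and 0.129). Trained TG males still had lower Bcat2, Bckdha, Dbt, Bckdk and Ivd than trained nTG males. Those comparisons share the trained TG males, so the values stand side by side and are not independent.

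No member passed in the other 3 training comparisons with edgeR. In TG females, where 0% of all genes passed, member differences lay between -0.05 and 0.07, and no member had an unadjusted p under 0.05, beside 3.58% of all genes. In nTG males, also with 0% of all genes passing, no member had an unadjusted p under 0.05, beside 5.91%. In nTG females, where 0.148% of all genes passed, all 10 differences were positive at 0.05 to 0.17, and 4 had an unadjusted p under 0.05, beside 14.2% of all genes. DESeq2 and limma voom also called no member in these 3 comparisons.

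Whether effects differed between groups was tested directly, and no member passed. The training effect was larger in TG than in nTG males by 0.25 ± 0.09 for Acadsb (95% interval 0.06 to 0.44) and by 0.27 ± 0.13 for Ppm1k (0.01 to 0.52), with edgeR adjusted p = 0.214 and 0.309. For this interaction, 6 of 10 members had an unadjusted p under 0.05, beside 14.8% of all genes, and 0% of all genes passed. The training effect of TG females minus that of TG males was -0.28 ± 0.10 for Acadsb and -0.26 ± 0.09 for Hibadh (edgeR adjusted p = 0.117 for both). There, 4 of 10 members had an unadjusted p under 0.05, beside 18.1% of all genes, and 0% of all genes passed. DESeq2 called no member, and limma voom called 3 members and 927 of all genes. Without replicate 4 of the trained TG males edgeR called 3 members and 460 of all genes for this interaction, and without replicate 6 of the trained TG females it called 1 member and 904 of all genes. The genotype effect of sedentary females minus that of sedentary males was 0.26 ± 0.11 for Bckdhb (adjusted p = 0.527), with 3 members and 8.7% of all genes at an unadjusted p under 0.05, and 0% of all genes passed. The genotype by training interaction in females had 1 such member and 6.46% of all genes, and again 0% passed. These intervals include effects of moderate size, so equal responses are not shown.

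Averaged over genotype and training, 5 of 10 members were lower in females than in males, against 9.21% of all genes. Bckdha differed most, at -0.19 ± 0.04 (adjusted p = 3.93e-05), followed by Hibadh at -0.12 ± 0.03, Bcat2, Bckdk and Ivd at -0.10 each. Bckdhb, Dbt, Ppm1k, Acadsb and Mccc1 did not pass, at -0.07 to 0.02. In the same comparison 9 of 21 further breakdown genes, 5 of 10 mitochondrial reference genes, 2 of 5 endothelial and 1 of 6 cardiomyocyte markers were lower, and 2 of 6 fibroblast and 1 of 3 adipocyte markers higher. With the mean of the mitochondrial reference genes as a covariate, Bckdha, Bckdk and Hibadh passed as lower and Mccc1 as higher. Libraries numbered 1 to 32 are male and 33 to 64 female, so sex and library number cannot be told apart.

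The other steps of the pathway moved with the members. Of 21 further breakdown genes, 20 passed as lower in males and 7 in females when sedentary, 10 in males and 13 in females when trained, and none as higher. Their median log2 difference was -0.29, -0.15, -0.16 and -0.20 in that order, beside -0.33, -0.17, -0.20 and -0.27 for the members, and medians of all genes from -0.01 to 0.01. In TG males 11 of 21 were higher after training, with a median of 0.16 beside 0.18 for the members. Mccc2, the partner subunit of Mccc1, averaged -0.33 ± 0.03 over the 4 genotype comparisons (adjusted p = 4.9e-15) and Aldh6a1, of valine breakdown, averaged -0.35 ± 0.03 (adjusted p = 2.87e-13). Mccc2, Aldh6a1, Echs1, Pcca, Auh and Mmab passed as lower in all 4, as did Abat, and Hadha and Oxct1 in 3.

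Abat, 4-aminobutyrate aminotransferase, which also acts on a product of valine breakdown, had the largest difference in the pathway. Its level was 21.1 to 59.5 CPM over all hearts. It averaged -0.67 ± 0.05 (adjusted p = 4.88e-19), with 4 values between -0.70 and -0.62. Its training differences were 0.03 to 0.11, and none passed.

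Transport and regulatory genes did not follow one direction. Of 10 genes, 2 were higher and 2 lower in sedentary males, beside 1588 higher and 1900 lower of all 16913 genes. In sedentary females 1 was higher and 1 lower, beside 268 and 471 of all genes. In trained mice 2 were lower in males and 1 was lower in females, beside 8.31% and 9.43% of all genes. With 10 genes, counts of 1 or 2 say little beside these shares. In the mean 2 were higher and 5 lower, beside 3128 and 3475 of all genes. Slc7a8 and Slc7a5, amino acid transporters of the cell surface, averaged 0.30 ± 0.05 and 0.25 ± 0.05 (adjusted p = 3.24e-07 and 3.28e-05). Slc43a2, another amino acid transporter, averaged -0.20 ± 0.05 (adjusted p = 0.000236) and was lower in trained males and sedentary females. Slc25a44, the mitochondrial carrier of branched-chain amino acids, averaged -0.06 ± 0.03 (adjusted p = 0.0434). Klf15, a transcription factor known to control breakdown genes in muscle, averaged -0.17 ± 0.06 (adjusted p = 0.0207) and passed in no single comparison. Esrra, a receptor that drives mitochondrial genes, averaged -0.14 ± 0.03 (adjusted p = 6.6e-06). Ppara, of the same list, averaged -0.20 ± 0.04 (adjusted p = 3.81e-05) and was lower in sedentary males. After training, TG males had lower Slc7a8 and Slc43a2, at -0.28 ± 0.09 and -0.33 ± 0.09 (adjusted p = 0.0226 and 0.00646). None of the 10 was higher there.

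Mitochondrial genes of a separate reference list moved by a similar amount. Of 10 reference genes such as Cs, citrate synthase, and Sdha, of complex II, 10 passed as lower in males and 2 in females when sedentary, and 5 in males and 9 in females when trained. Their medians were -0.27, -0.13, -0.14 and -0.22 in that order, and in TG males after training 0.15 with 5 of 10 higher. When the mean of these reference genes entered the edgeR model as a covariate, members passing fell from 10 to 0 in sedentary males, from 3 to 1 in sedentary females and from 9 to 0 in trained females. In trained males 4 passed in place of 5: Dbt, Bckdk and Ivd as lower, at -0.14, -0.13 and -0.17 (adjusted p = 0.0364, 0.0395 and 0.00602), and Acadsb as higher at 0.14 (adjusted p = 0.0256). The training count in TG males fell from 6 to 0. Calls over all 16913 genes changed too, from 3488 to 135 in sedentary males, from 739 to 449 in sedentary females, from 2503 to 635 in trained females, from 2361 to 2059 in trained males and from 3036 to 7 for training in TG males. For the mean genotype difference, Ivd still passed as lower at -0.18 (adjusted p = 1.67e-05), and Mccc1 passed as higher at 0.09 (adjusted p = 0.00388). This covariate was added after the data had been seen and itself differs between genotypes.

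**Figure D3:**
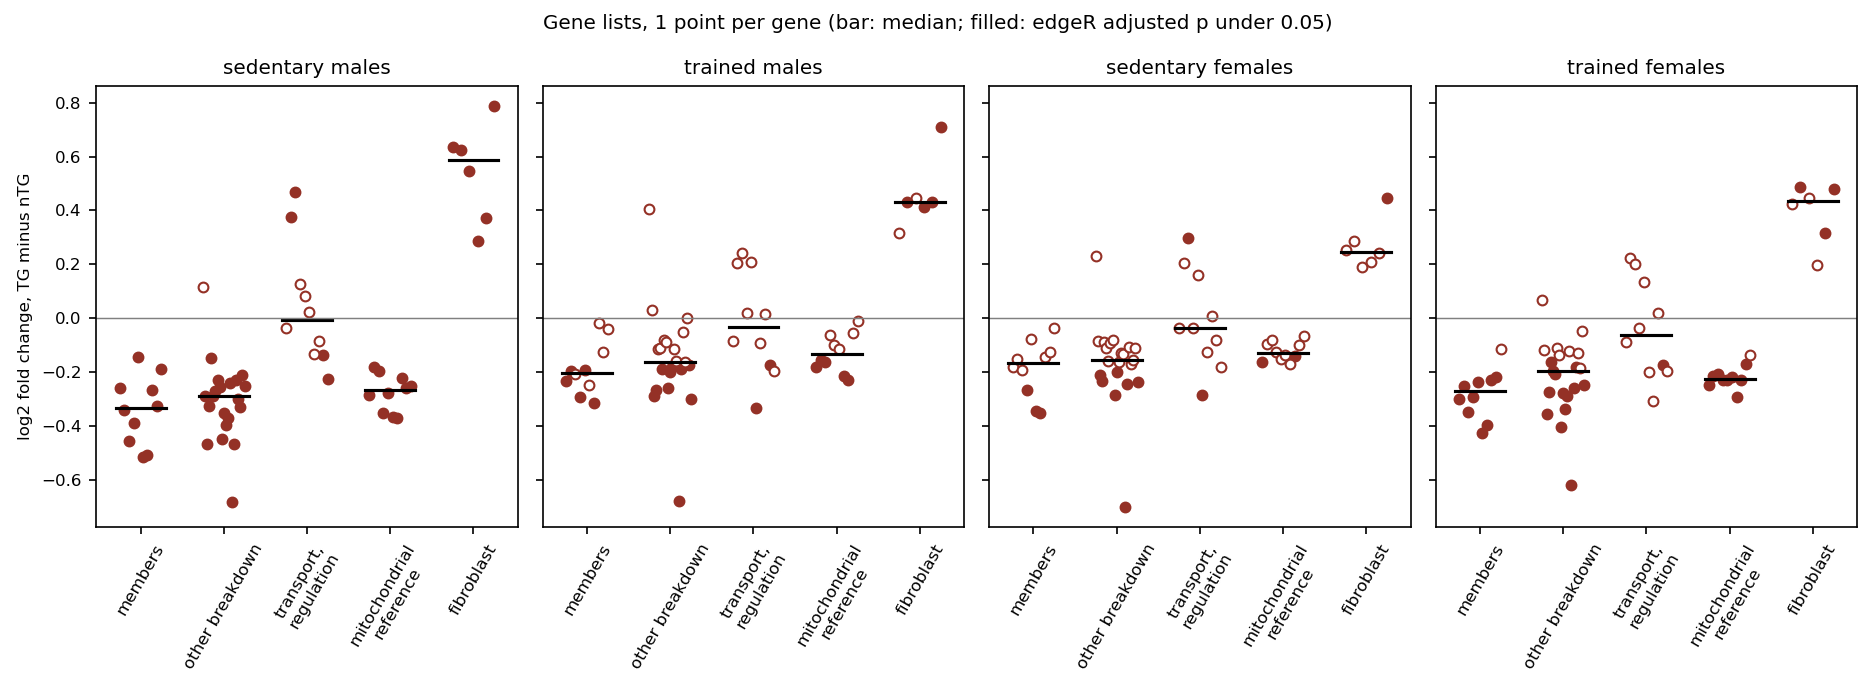
Log2 fold changes of TG minus nTG for each gene of 5 lists in the 4 genotype comparisons, with the list median as a bar and filled points past an edgeR adjusted p under 0.05. The medians of members, other breakdown genes and mitochondrial reference genes lie below 0 in each comparison, while single genes of the other breakdown list, such as Bcat1, lie above it, and transport and regulatory genes straddle 0.

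Markers of cell types also moved with genotype. Cardiomyocyte markers of the labelled tissue were abundant and summed to 46350 to 67541 CPM, and none of 3 liver markers is in the table. Averaged over the comparisons, 5 of 6 cardiomyocyte markers passed as lower (median -0.14), 6 of 6 fibroblast markers as higher (median 0.41) and 5 of 5 macrophage markers as higher (median 0.41). The fibroblast sum was 737 to 986 CPM in sedentary nTG males and 823 to 1434 CPM in sedentary TG males. The macrophage sum was 114 to 155 CPM and 149 to 250.6 CPM in those groups. The 5 blood genes were all lower in trained TG males than in sedentary TG males or trained nTG males, and 1 sedentary TG male, replicate 5, had a blood sum of 4603 CPM. With the blood share as a covariate, 8 members passed as lower in trained males in place of 5. Calls over all genes went from 2361 to 2122 there. In the mean, 3 of 5 blood genes were lower (median -0.38). Of 5 adipocyte markers 3 are in the table, none of which passed in the mean (median 0.47), while Cfd was higher in sedentary males. Of 6 skeletal muscle markers 2 are in the table, Acta1, higher in the mean at 0.93 ± 0.17, and Ckm, lower at -0.19 ± 0.03, both also expressed in heart. In addition, 1 of 5 endothelial markers passed as lower in the mean (median -0.04). The blood share was fitted as a covariate, but blood genes themselves differed between groups. The part of the other markers in the differences of the members was not tested.

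Within groups the members varied together. After the group means were subtracted, Pearson's r between members over 64 hearts had a median of 0.68, with 32 of 45 pairs over 0.5 and none negative, beside a median of 0.00 over pairs of genes. The highest pair was Bckdha and Ivd (r = 0.87) and the lowest was Bckdk and Ppm1k (r = 0.19). The kinase also stood lowest with Acadsb (r = 0.26), Hibadh (r = 0.26) and Bckdhb (r = 0.27). These values share the libraries, their depth and their cell makeup, and are a description.

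**Figure D4:**
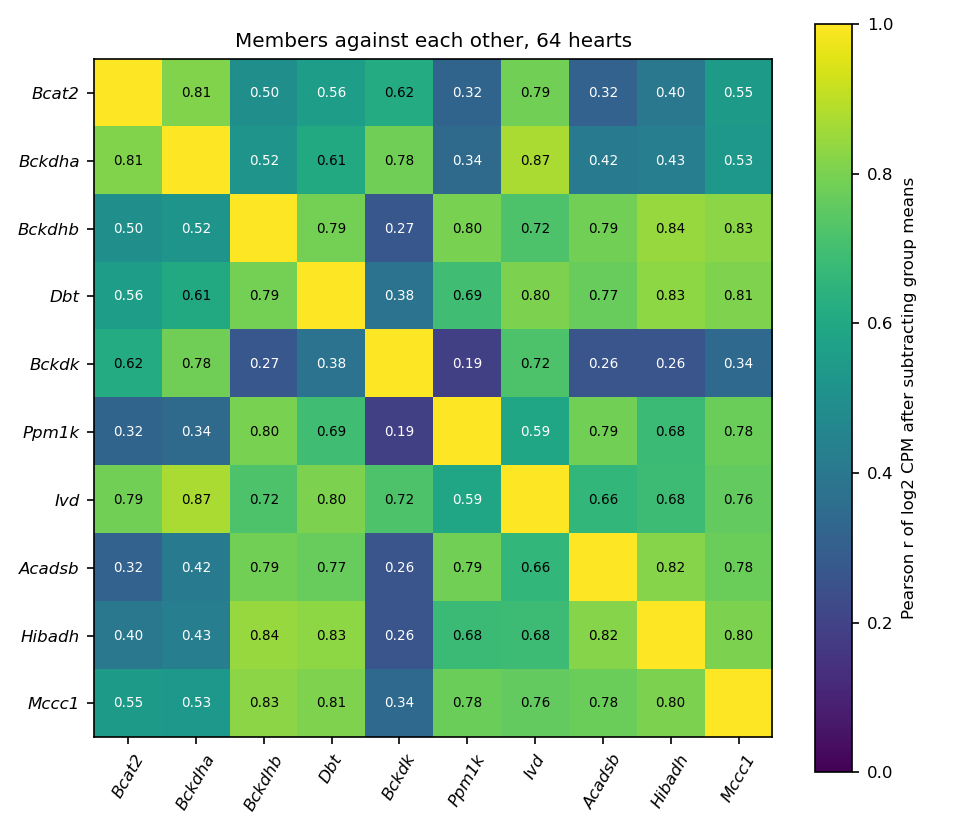
Pearson's r between each pair of the 10 genes over 64 hearts, from log2 CPM after subtraction of the group means, on a colour scale from 0 to 1. Values run from 0.19 for Bckdk with Ppm1k to 0.87 for Bckdha with Ivd, and the Bckdk row is the darkest.

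Likeness of pattern to each member was ranked by the same measure over 12144 other genes with a mean of at least 50 counts. Clone names, pseudogenes and predicted genes were left out. The genes most like Hibadh were Ndufa9 (r = 0.93), Sucla2 (r = 0.93) and Pdha1 (r = 0.91). For Bckdha they were Aldh4a1 (r = 0.90), Ivd (r = 0.87) and Acads (r = 0.87), and for Ivd they were Slc25a11 (r = 0.87), Bckdha and Gcdh (r = 0.87). Bckdhb was most like Slc25a3, Sdha and Atp5a1, Mccc1 like Sdha, Ndufa9 and Atp5a1, and Acadsb like Acadl, Nipsnap2 and Pdha1. Among the 3 genes most like Dbt were Hibadh and Aldh6a1 (r = 0.83 each). Ppm1k was most like Pcmtd2 (r = 0.80), Bckdhb and Acadsb. Bcat2 was most like Ndufs7 (r = 0.83), Slc25a11 and Bckdha, and Bckdk like Pygm (r = 0.79), the glycogen phosphorylase of muscle, Bckdha and Acads.

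One heart stood apart. Replicate 4 of the trained TG males was lowest in its group for 10 of 10 members. On average it lay 0.40 log2 units below the group mean. Its fibroblast sum, 1777 CPM, and macrophage sum, 252 CPM, were the highest of that group, and its cardiomyocyte sum, 46350 CPM, and mitochondrial reference sum, 5698 CPM, the lowest. Without it, 4 members passed as lower in trained TG against trained nTG males, and 7 as higher after training in TG males. Calls over all genes moved the same way, from 2361 to 1754 and from 3036 to 4061. Replicate 4 of the sedentary nTG females was lowest in its group for 9 of 10 members, with a fibroblast sum of 1457 CPM, the highest of that group. Without it, 5 members passed as lower in sedentary females in place of 3, and calls over all genes rose from 739 to 978. Replicate 5 of the sedentary nTG males was likewise lowest for 9 of 10 members, and its fibroblast sum, 986 CPM, was the highest of that group.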

How the data were processed

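The gene table was deposited as whole-number counts, and the lncRNA table as estimated counts (expected counts). The submitters' processing notes name cutadapt 2.3, STAR 2.7.8a, RSEM 1.3.3 and the build GRCm38 (mm10), with no role or order. Per the labels, RNA came from heart tissue, with ribosomal depletion. GENCODE M21 gave symbols for 16879 of 16913 identifiers.

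Gene columns were matched to lncRNA columns by Pearson's r of centred log2 CPM, counts were scaled by TMM, and edgeR 4.0.16 fitted 1 quasi-likelihood model with a mean for each of 8 groups. filterByExpr kept all 16913 genes. Members, lists and tests were chosen with earlier results of these data known. All members are named, other pathway genes by the number of comparisons passed (at most 8 genes), and for each member the 3 genes with the highest r, of which 1 is not reported here. Bcat1, Oxct1, Slc7a8, Slc7a5, Slc43a2, Slc25a44, Klf15, Esrra and Ppara fall outside that rule and were chosen after their values were seen. In simulated tables, the match returned 64 of 64 shuffled columns. Both simulated tables shared the same scatter between libraries and held no group differences. The simulation thus checks the code and not the match of the real tables. Alternatives used DESeq2 1.42.0, limma 3.58.1, other size factors, covariates, fewer groups and fewer libraries. Replicate numbers are not stated to pair hearts. Correlations of same-numbered hearts were -0.17 to 0.20, which cannot exclude a pairing.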

Additional observations from a re-analysis of the deposited data

Results flagged for a closer look

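In groups of 6 to 10 hearts, a heart was marked when its gap to the nearest other exceeded Dixon's 95% limit. Of 80 combinations of member and group, 11 held such a heart, where chance gives about 4. Replicate 4 of the trained TG males was marked for 5 members, as the lowest of its group: Bckdhb at 17.9 CPM, Dbt at 35.03 CPM, Hibadh at 104 CPM, Ivd at 219.9 CPM and Mccc1 at 71.1 CPM. Replicate 6 of the trained TG females was the highest of its group for Hibadh at 139.7 CPM and Ppm1k at 116 CPM. Replicate 3 of the trained TG females was the highest for Ivd at 293 CPM. Replicate 4 of the trained nTG females was the lowest for Acadsb at 87.5 CPM, replicate 5 of the sedentary nTG males the lowest for Dbt at 45.6 CPM, and replicate 1 of the trained nTG males the highest for Bcat2 at 93.2 CPM.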

How the results depend on the processing

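With gene columns by name, no member passed in any comparison (0 in each), and 26 called differences changed sign. Calls over all genes were also 0 by name in the comparisons where members had passed. In log2 units, the genotype difference of sedentary males became Bcat2 0.0095, Bckdha 0.060, Bckdk 0.046. That of trained males became Bcat2 0.039, Bckdha 0.12, Dbt 0.044, Bckdk 0.064, Ivd 0.11. That of trained females became Dbt 0.014, Bckdk 0.030, Ppm1k 0.10, Acadsb 0.030, Hibadh 0.058. The training difference of TG males became Bckdhb -0.070, Dbt -0.16, Ppm1k -0.011, Acadsb -0.0055, Hibadh -0.12, Mccc1 -0.065. The mean genotype difference became Bckdha 0.030, Bckdk 0.033. The female minus male difference became Bcat2 0.013, Bckdha 0.045, Bckdk 0.00056, Ivd 0.040, Hibadh 0.058. The matched columns carry every result here.

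With the mitochondrial reference as a covariate, chosen after seeing the data, members passing were 0 in sedentary males, 1 in sedentary females, 0 in trained females, 4 in trained males, 0 for training in TG males, 2 for the mean genotype difference and 4 between sexes. Among differences that had passed, those that changed sign were Acadsb 0.070, Hibadh 0.011 and Mccc1 0.079 in sedentary males, Acadsb 0.032 and Hibadh 0.046 in trained females, and Acadsb 0.061, Hibadh 0.029 and Mccc1 0.085 in the mean. With the blood share as a covariate, 8 passed in trained males and 1 for training in TG males, where the 5 lost members kept differences of 0.13 to 0.26. Calls over all genes were 2122 and 817 in these fits. With only the groups compared, 1 passed in sedentary females. With limma voom, 7 passed in sedentary females and 3 for the training effect between sexes in TG mice. The causes were not tested.

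Leaving out 1 library at a time gave 9 to 10 members in sedentary males, 4 to 7 in trained males, 3 to 5 in sedentary females, 7 to 9 in trained females, 5 to 7 for training in TG males, 10 to 10 for the mean genotype difference, 5 to 6 between sexes and 0 to 3 for the training effect between sexes. The other 6 counts stayed at 0. The replicate number as a block changed no member count (10, 5, 3 and 9 for genotype, 6 for training in TG males). The numbers are not stated to pair the hearts. The lowest count of any member in a heart was 799, and counting error was not set against the spread between hearts.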
